A study of Mus musculus with 3 samples.

Results

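Serotonin receptor genes were followed across neurons of the adult mouse basolateral amygdala (BLA), a set of deep temporal-lobe nuclei that process emotionally salient stimuli. The members were 8 of the 14 serotonin receptor genes in the files, taken by gene symbol: Htr1a, Htr1b, Htr1f, Htr2a, Htr2c, Htr3a, Htr4 and Htr7. All nuclei came from male C57BL/6NRj mice at postnatal day 56, with no treatment or genetic manipulation named, and the tissue of 4 brains from 1 litter was pooled in each dataset. Single-nucleus RNA sequencing counted unique molecular identifiers (UMIs), 1 per captured transcript, for each droplet barcode, here read as a nucleus. Libraries 2 and 3 were analysed, with 3792 and 4588 barcodes and totals of 24354374 and 33049068 UMIs. Library 1 held only 42 glutamatergic and 7 GABAergic barcodes by the rules below and was set aside.

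Serotonin reaches the amygdala from the raphe nuclei of the brainstem and acts on receptors of several families. Receptors encoded by Htr1 genes couple to inhibitory G proteins and lower cAMP, those of the Htr2 genes couple to Gq and phospholipase C, and those of Htr4 and Htr7 couple to Gs and raise cAMP. Htr3a encodes a subunit of the only ion channel among them, known in cortex as a mark of a group of GABAergic interneurons.

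Barcodes were called glutamatergic with 2 or more UMIs of the vesicular glutamate transporter genes Slc17a7 and Slc17a6 together and 0 of Gad1 and Gad2, the genes of the GABA-synthesising enzymes, and GABAergic by the reverse. In both classes the astrocyte transporter genes Slc1a2 and Slc1a3 had to stay under 0.1% of UMIs. Library 2 held 484 glutamatergic and 388 GABAergic nuclei and library 3 held 210 and 677. The median depth was 15526 and 13077 UMIs in glutamatergic nuclei and 7646 and 7246 UMIs in GABAergic nuclei. Among markers that the rule did not use, Dlx6os1 had a UMI in 66.2% and 71.6% of GABAergic nuclei and in 3.51% and 6.19% of glutamatergic nuclei. Camk2a, on the glutamatergic list, had a UMI in 92.3% and 87.4% of GABAergic nuclei, so it did not separate the classes. The cortical projection-neuron markers Neurod6 and Tbr1 were in under 10% of glutamatergic nuclei in both libraries.

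Within GABAergic nuclei, gates were set by a minimum number of UMIs of 1 gene: Foxp2 with 3 or more (153 and 351 nuclei in libraries 2 and 3), Sst with 1 or more (38 and 88), Moxd1 with 2 or more (63 and 93), Vip with 1 or more (15 and 26) and Cnr1 with 4 or more (16 and 21). Gates are named by their gene. Outside all 5 gates lay 130 and 170 nuclei, and 26 and 68 nuclei were in more than 1 gate. Most of the latter were in the Sst and Moxd1 gates, an overlap of 36.8% and 39.8% of the Sst gate. Foxp2 nuclei also made up part of the other gates in libraries 2 and 3. They were 2.63% and 22.7% of the Sst gate, 7.94% and 14.0% of Moxd1, 0% and 19.2% of Vip, and 12.5% and 9.52% of Cnr1. In the Foxp2 gate Meis2 had a UMI in 98.7% and 99.7% of nuclei, while Adora2a and Ppp1r1b, markers of striatal projection neurons, were in under 4%. Calb1 was in 79.4% and 89.2% of Moxd1 nuclei. Prox1 was in 86.7% and 73.1% of Vip nuclei. The list of 5 Vip markers shares Adarb2 with the list of Cnr1 markers. As a whole it did not set the Vip gate apart from the Cnr1 gate. It summed to 14348 and 14942 CPM (defined below) in the Vip gate and 17455 and 30536 CPM in the Cnr1 gate. The Cnr1 list gave similar sums, 13931 and 14666 CPM in the Vip gate and 18731 and 32363 CPM in the Cnr1 gate. The list of 7 Sst markers includes Sst itself, so the gate rule raises its sum in the Sst gate. There it summed to 941 and 636 CPM. In the Moxd1 gate the same list summed to 359 and 371 CPM. Reln was in 81.3% and 81.0% of Cnr1 nuclei, and Sncg was at 0 there.

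The genes with the most UMIs, Htr1f and Htr2c, were opposed between the Foxp2 gate and the other GABAergic nuclei (values below). Their promoters are printed to show how the regions around their starts differ in base composition. Each runs from 250 bases before to 50 bases after the gene's start, on the gene's strand, from RefSeq on GRCm38.p6, with CG dinucleotides in capitals.
Htr1f, chr16:65105735-65106034, minus strand: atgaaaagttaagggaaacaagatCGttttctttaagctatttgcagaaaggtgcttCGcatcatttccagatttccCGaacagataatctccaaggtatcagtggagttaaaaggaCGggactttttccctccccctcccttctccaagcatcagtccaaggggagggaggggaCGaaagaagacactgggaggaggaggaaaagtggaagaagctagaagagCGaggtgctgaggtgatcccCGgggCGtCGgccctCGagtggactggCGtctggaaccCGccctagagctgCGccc
Htr2c, chrX:146962263-146962562, plus strand: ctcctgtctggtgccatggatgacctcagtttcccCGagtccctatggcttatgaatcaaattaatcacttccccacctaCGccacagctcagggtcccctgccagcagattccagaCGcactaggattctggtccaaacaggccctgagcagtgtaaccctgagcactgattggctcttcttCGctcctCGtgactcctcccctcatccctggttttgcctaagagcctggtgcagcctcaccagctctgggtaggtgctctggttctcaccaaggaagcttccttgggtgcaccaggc
The Htr1f promoter holds 13 CG dinucleotides and the Htr2c promoter 5. Of 32851 promoters in the table, 62.1% hold fewer CG than that of Htr1f and 38.04% fewer than that of Htr2c. A promoter was listed for 6 of the 8 members. The one of Htr7 stands apart, with 46 CG and a GC content of 81%, above 98.4% of promoters in CG count. Neither TGTTTAC, the core letters bound by forkhead factors, nor TATAAA was found on either strand in any of the 6, against 3.65% and 13.6% of all promoters.

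Between the classes, levels were compared as UMI counts summed over the nuclei of a library and class, and are given as CPM, the count per 1e6 UMIs of that sum. Of the 6 members that passed the filter on low counts, 3 were lower in glutamatergic than in GABAergic nuclei and none was higher at an adjusted p under 0.05. Over all genes 16.4% of 12872 were called. The median log2 fold change, glutamatergic minus GABAergic, was -0.60 over the 6 members and -0.02 over all genes. Htr7 had the largest difference, followed by Htr2a and Htr1f. Each class was measured in the same libraries, so a fit with the library as a block was also made. It called 5 members among 3216 genes called. The block leaves 1 residual degree of freedom, so its p-values rest largely on the spread estimated over all genes. Fits without 1 sum, given below, leave 1 sum in that arm, so they do not measure its spread between libraries.

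**Figure D1:**
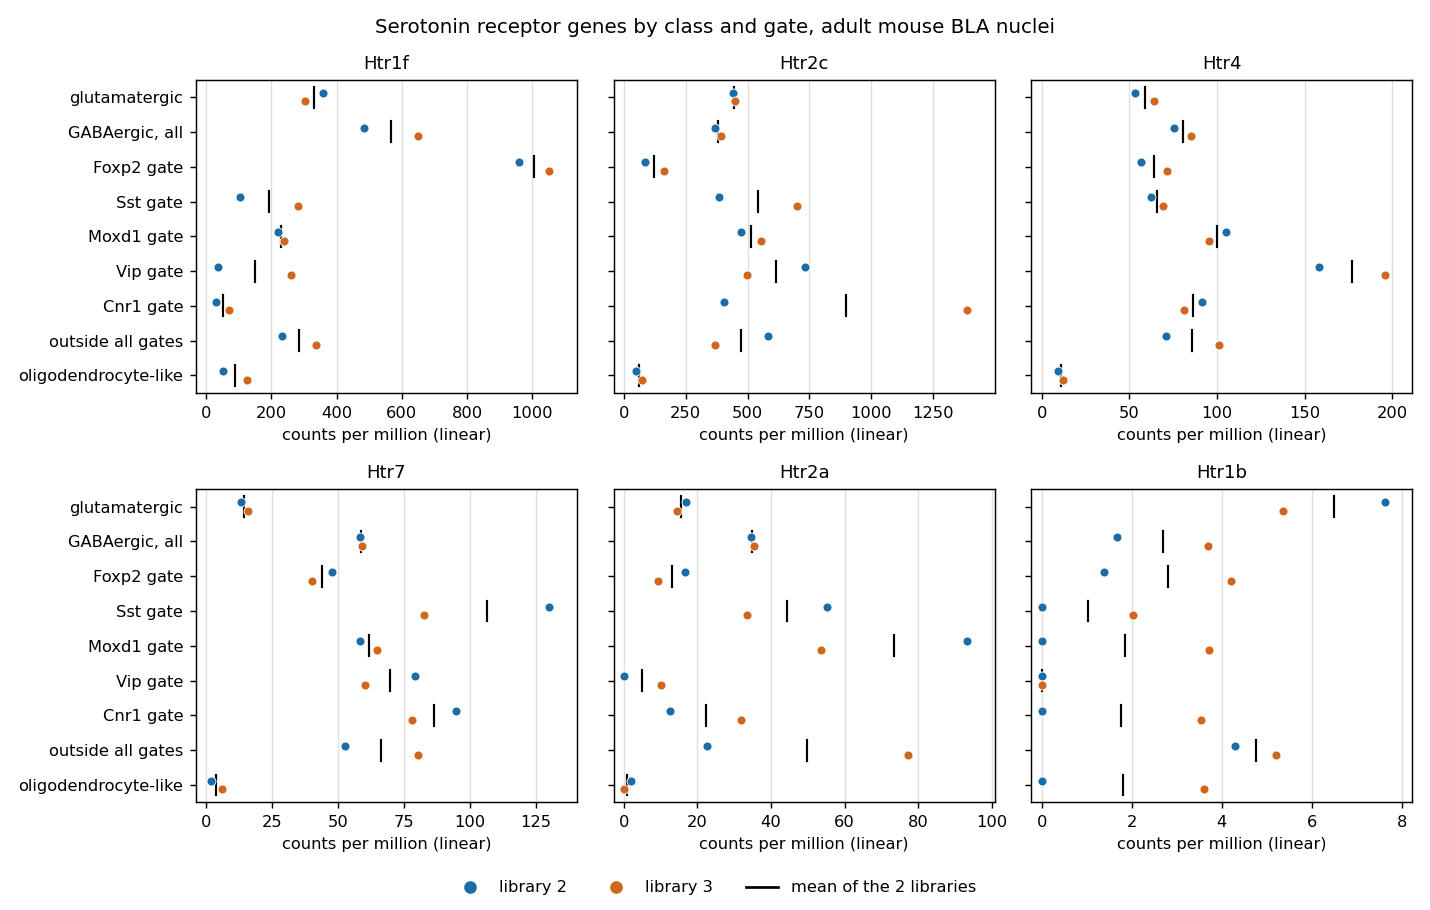
Levels of 6 serotonin receptor genes (CPM, linear axes that differ between genes) in summed nuclei of each class and gate, 1 point per library and a bar at the mean of libraries 2 and 3. Htr1f peaks in the Foxp2 gate at 958 and 1051 CPM, where Htr2c has 83.2 and 164 CPM, its lowest levels among the neuronal groups.

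Htr1f, which encodes an inhibitory receptor with high affinity for triptan drugs, spans chr16:64924729-65105854 on mm10. Its level in glutamatergic nuclei was 359 CPM in library 2 and 304 CPM in library 3. In GABAergic nuclei it was 484 and 650 CPM, so both GABAergic values lay above both glutamatergic values. The log2 fold change was -0.76 ± 0.24 (SE, 2 libraries per class, edgeR adjusted p = 0.0432). The call was lost without the GABAergic sum of library 3 (-0.38, edgeR adjusted p = 0.51) and without the glutamatergic sum of library 2 (-0.76, edgeR adjusted p = 0.127) or library 3 (-0.73, edgeR adjusted p = 0.212). It was also lost with stricter gates (-0.17, edgeR adjusted p = 0.794). The Foxp2 gate held 79.98% and 84.1% of the GABAergic Htr1f UMIs in 39.4% and 51.8% of GABAergic nuclei. GABAergic nuclei outside all gates had 232 and 338 CPM of Htr1f, a range that overlaps the glutamatergic one.

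Htr7, the gene of a Gs-coupled receptor with a long cytoplasmic tail, lies at chr19:35958734-36057507. It was at 13.1 and 15.8 CPM in glutamatergic nuclei and at 58.3 and 58.9 CPM in GABAergic nuclei. The classes did not overlap, and the libraries differed by less than 3 CPM within a class. The log2 fold change was -2.04 ± 0.20 (SE, edgeR adjusted p = 1.38e-05). All 5 gates and the nuclei outside them had higher Htr7 levels than glutamatergic nuclei in both libraries, from 40.0 to 130 CPM.

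Htr2a, the gene of a Gq-coupled receptor that is the main target of classical psychedelics, lies at chr14:74640840-74709494. Its level was 16.8 and 14.5 CPM in glutamatergic and 34.4 and 35.3 CPM in GABAergic nuclei, again without overlap. The log2 fold change was -1.13 ± 0.20 (SE, edgeR adjusted p = 0.00118). Htr2c, whose Gq-coupled receptor is widespread in the limbic system, spans chrX:146962513-147197277 and was at 443 and 450 CPM in glutamatergic nuclei. In GABAergic nuclei it was at 367 and 391 CPM, and the log2 fold change of 0.27 ± 0.21 (SE, edgeR adjusted p = 0.504) was not called. The small RNA genes within Htr2c, Snora35 and Mir448 among them, lie on its strand, so their reads could not be set apart from its own by position.

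Htr4, the gene of a Gs-coupled receptor, lies at chr18:62324204-62496577. It was at 53.5 and 64.3 CPM in glutamatergic and 75.6 and 85.1 CPM in GABAergic nuclei. The ranges did not overlap, but the log2 fold change of -0.44 ± 0.19 (SE, edgeR adjusted p = 0.162) was not called. It was called with the library block (-0.42, edgeR adjusted p = 0.0142) and without the glutamatergic sum of library 3 (-0.66, edgeR adjusted p = 0.043). Htr1b, the gene of an inhibitory receptor known from axon terminals, lies at chr9:81628291-81633828. It was at 7.62 and 5.36 CPM in glutamatergic and 1.68 and 3.69 CPM in GABAergic nuclei, from 64, 17, 6 and 22 UMIs. Its log2 fold change of 1.21 ± 0.43 (SE, edgeR adjusted p = 0.0812) was not called. The Htr1b call was made with the block (1.28, edgeR adjusted p = 0.0373), with fewer doublets, without the filter on low counts and without the library 3 sum of either class, where it was 1.33 (glutamatergic sum left out, edgeR adjusted p = 0.0421) and 2.12 (GABAergic sum left out, edgeR adjusted p = 0.0124). D430036J16Rik lies on the opposite strand over Htr1b, and whether the counting used strand is not given in the sources used here.

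Htr1a, the autoreceptor gene of raphe neurons and an inhibitory receptor gene of forebrain neurons, lies at chr13:105443639-105448122. It had 2 and 1 UMIs in glutamatergic nuclei and 1 and 0 in GABAergic nuclei. A count of 0 in 677 nuclei allows a share of up to 0.443% with a UMI. Htr3a, at chr9:48899213-48911099, had 1 and 0 UMIs in glutamatergic and 5 and 8 in GABAergic nuclei. In library 2, 3 of the 5 UMIs lay outside all gates, 1 in the Vip gate (7.19 CPM) and 1 in the Moxd1 gate. In library 3, where a nucleus can be in more than 1 gate, 5 of the 8 lay in the Foxp2 gate (1.61 CPM), 3 in the Cnr1 gate (10.6 CPM), 2 in the Vip gate (10.0 CPM) and 1 each in the Sst and Moxd1 gates. Neither gene was detectable at this depth beyond single UMIs, and neither passed the filter on low counts. Without that filter Htr3a was called lower in glutamatergic nuclei (edgeR adjusted p = 0.0341).

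Adding the 42 glutamatergic nuclei of library 1 to the fit left no member called and 71 genes called in all. Those nuclei had a median of 6685 UMIs, under the 15526 and 13077 of the other libraries, and 47.6% of them had an Sst UMI, against 1.24% and 0.952%. The part of either in the lost calls was not tested. The log2 fold changes with library 1 were -2.08 for Htr7 (edgeR adjusted p = 0.0525), -1.13 for Htr2a (edgeR adjusted p = 0.114) and -1.04 for Htr1f (edgeR adjusted p = 0.535).

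The share of nuclei with a UMI followed depth as well as level, so each nucleus was also thinned to 3700 UMIs, leaving out 28 and 14 glutamatergic and 51 and 76 GABAergic nuclei. At full depth Htr1f had a UMI in 72.9% and 61.9% of glutamatergic and 58.5% and 66.8% of GABAergic nuclei. Thinned, its shares were 54.2% and 43.9% against 51.9% and 60.7%, so the order of the classes differed between libraries. Htr2c had a UMI in 80.2% and 71.9% of glutamatergic and 46.6% and 43.0% of GABAergic nuclei, and thinned in 62.3% and 53.1% against 37.98% and 36.3%. Its share was thus higher in glutamatergic nuclei in both libraries, while the level of its summed counts was not called. Thinned shares of Htr7 were 5.92% and 5.61% in glutamatergic and 15.1% and 15.6% in GABAergic nuclei.

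Transcripts free in the suspension also give UMIs. Oligodendrocyte-like barcodes, at a median of 2261 and 2193 UMIs, had a UMI of Htr1f in 9.42% and 10.3% and of Htr2c in 11.52% and 11.56%. The 39 and 41 of them that reached 3700 UMIs had thinned Htr1f shares of 12.8% and 29.3%, with exact 95% intervals of 4.30% to 27.4% and 16.1% to 45.5%. Astrocyte-like barcodes, 99 and 277 at that depth, had thinned Htr1f shares of 10.1% and 6.86%, the latter with an interval of 4.18% to 10.50%. In library 2 the thinned Htr1f shares of the Vip gate, 7.14%, and the Cnr1 gate, 0%, were below both backgrounds. They came from 1 of 14 and 0 of 16 nuclei, with intervals of 0.181% to 33.9% and 0% to 20.6%. Both intervals overlapped those of both backgrounds. In library 3 the Vip share of 34.8%, with an interval of 16.4% to 57.3%, overlapped the oligodendrocyte-like interval and lay above the astrocyte-like one. The Cnr1 share of library 3 was 14.3%, with an interval of 3.05% to 36.3% that overlapped both. Microglia-like barcodes, 9 and 12 at 3700 UMIs, had thinned Htr1f shares of 22.2% and 41.7%. The latter's interval was 15.2% to 72.3%. Htr2a was at 25.8 and 17.8 CPM in microglia-like and 25.4 and 67.7 CPM in vascular-like barcodes. Those levels rest on 9 and 5 UMIs over both libraries. They lay above the glutamatergic 16.8 and 14.5 CPM, while astrocyte-like barcodes had 3.01 and 2.20 CPM and oligodendrocyte-like ones 1.88 and 0 CPM. For Htr7 the thinned share was 0% and 7.32% in oligodendrocyte-like barcodes, the latter from 3 of 41, and 0% and 1.44% in astrocyte-like barcodes. The glutamatergic Htr7 shares of 5.92% and 5.61% were above the astrocyte-like ones in both libraries and, in library 3, below the oligodendrocyte-like one. Thinned Htr1a and Htr3a were at 0 of 39 and 0 of 41 oligodendrocyte-like barcodes, which leaves upper limits of 9.03% and 8.60%, above the shares of both classes.

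**Figure D2:**
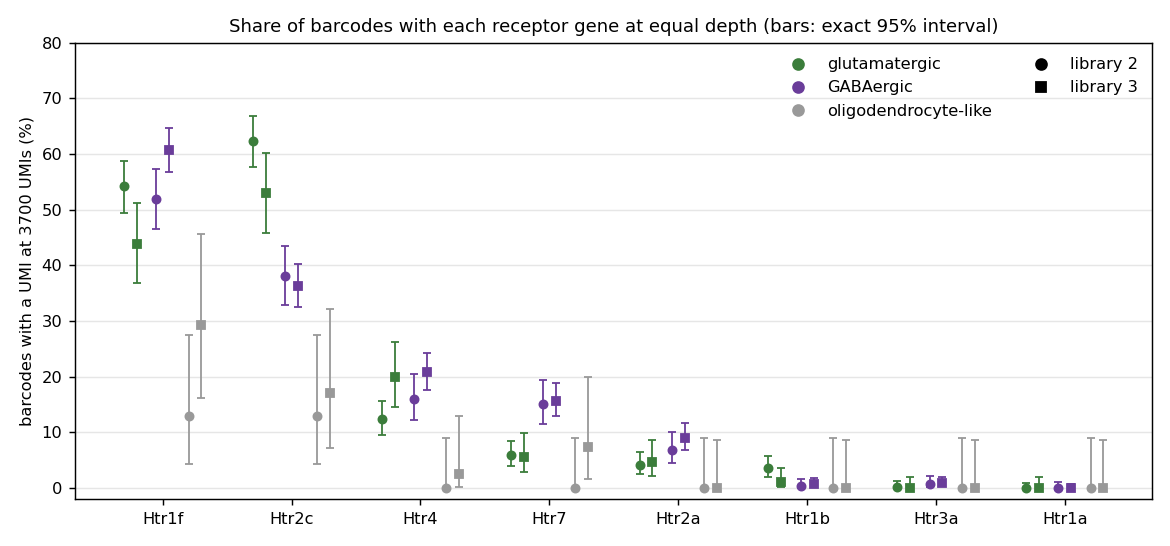
Share of barcodes with at least 1 UMI of each receptor gene after thinning every barcode to 3700 UMIs, in percent, for glutamatergic, GABAergic and oligodendrocyte-like barcodes of libraries 2 and 3, with exact 95% intervals that cover counting error only. Htr2c stands higher in glutamatergic nuclei (62.3% and 53.1%) than in GABAergic nuclei (37.98% and 36.3%), and Htr7 the reverse.

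CPM compares a gene between groups, not genes with each other, so levels were also divided by length. Per kilobase of the longest transcript, glutamatergic levels were 129 CPM for Htr1f, 91.4 CPM for Htr2c and 12.6 CPM for Htr4. On the same scale Htr7 was at 4.57, Htr2a at 2.79 and Htr1b at 1.37 CPM. In GABAergic nuclei Htr1f was at 220 CPM per kilobase of transcript, Htr2c at 77.6, Htr7 at 18.6, Htr4 at 17.2, Htr2a at 6.22 and Htr1b at 0.569. Nuclear RNA is rich in introns, and per kilobase of the whole gene glutamatergic Htr1f and Htr2c were at 1.83 and 1.90 CPM, the reverse order. Counts of 3' tags need not scale with length, and no test was made between genes.

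Within the GABAergic class, each gate was compared with all other GABAergic nuclei. Over the 5 gates, 10 of 25 member tests were called, with 5 members tested in each. The shares called over all genes were 12.1%, 1.32%, 6.97%, 4.02% and 4.98% in the Foxp2, Sst, Moxd1, Vip and Cnr1 gates. Htr1b passed the filter in none of them. Htr1f was called in 4 gates, Htr2a in 3, and Htr2c, Htr7 and Htr4 in 1 each.

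**Figure D3:**
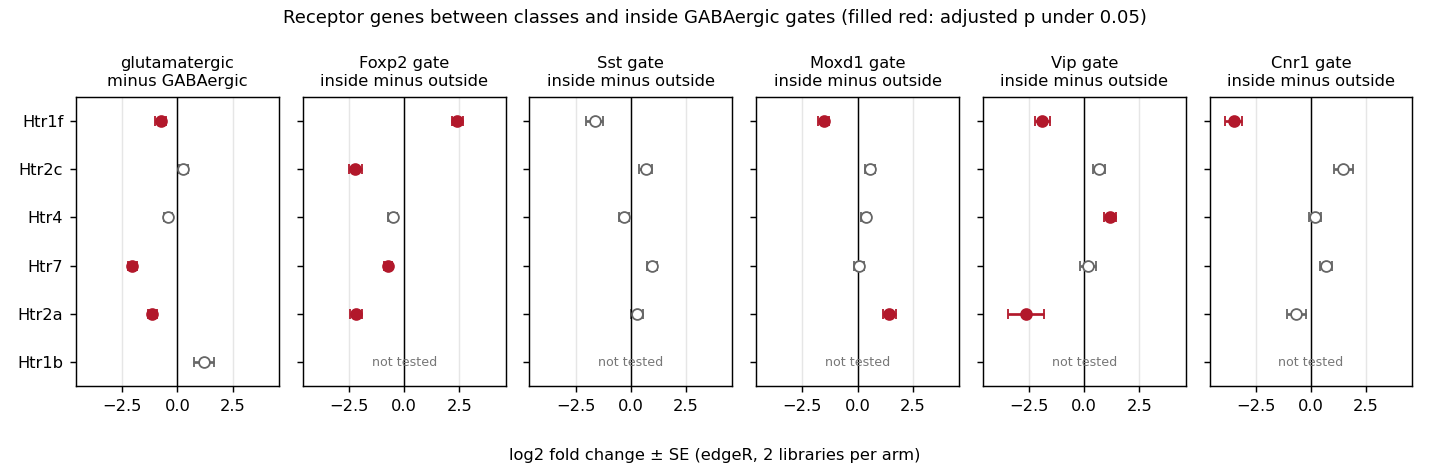
Fitted log2 fold changes with SE for 6 receptor genes, between the classes (glutamatergic minus GABAergic) and inside minus outside each GABAergic gate, with 2 libraries per arm and filled red points at an adjusted p under 0.05. Htr1f is the only member called higher in the Foxp2 gate (2.42), and it is called lower in the Moxd1 (-1.53), Vip (-1.90) and Cnr1 (-3.51) gates.

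In the Foxp2 gate 4 of the 5 tested members were called, against 12.1% of 10912 genes. Foxp2 marks intercalated and striatal-type GABAergic neurons. Htr1f was at 958 and 1051 CPM inside and 163 and 215 CPM outside the gate. Its log2 fold change was 2.42 ± 0.25 (SE, edgeR adjusted p = 4.81e-06), and it had a UMI in 91.5% and 90.0% of the gated nuclei. Htr2c went the other way, with 83.2 and 164 CPM inside and 559 and 638 CPM outside, a log2 fold change of -2.22 ± 0.29 (SE, edgeR adjusted p = 4.71e-05). Neither gene's ranges overlapped between the arms. Htr2a was at 16.6 and 9.36 CPM inside and 46.5 and 63.4 CPM outside, a log2 fold change of -2.18 ± 0.29 (SE, edgeR adjusted p = 5.81e-05). Htr7 was at 47.8 and 40.0 CPM inside and 65.3 and 79.5 CPM outside, a log2 fold change of -0.73 ± 0.20 (SE, edgeR adjusted p = 0.0231). The Htr7 call was lost by DESeq2 and with stricter gates. It was also lost without either arm's sum of library 3, at -0.68 for the inside and -0.46 for the outside. Htr4 was at 56.8 and 71.3 CPM inside and 88.3 and 100.1 CPM outside, and was not called (edgeR adjusted p = 0.121). It was called lower with the library block (-0.53, edgeR adjusted p = 0.00373), with fewer doublets, with nuclei in 1 gate only and without the inside sum of library 3 (-0.81, edgeR adjusted p = 0.0293).

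Nuclei of the Foxp2 gate were also split by Rarb, a retinoic acid receptor gene that the study used for amygdalostriatal cells. The split was chosen after the levels were seen and has no test. Htr1f was at 756 and 866 CPM in gated nuclei with a Rarb UMI and at 1185 and 1323 CPM in those without. Htr7 was at 34.1 and 22.3 CPM with Rarb and 63.2 and 66.0 CPM without. Both genes were thus higher without Rarb in each library. Htr4 was higher with Rarb, at 63.0 and 102 CPM, than without, at 49.99 and 26.2 CPM. Htr2c had 105 and 164 CPM with Rarb and 58.8 and 163 CPM without, which overlap.

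In the Moxd1 gate 2 of the 5 tested members were called, against 6.97% of 10203 genes. Htr2a was at 93.3 and 53.7 CPM inside and 18.2 and 31.2 CPM outside, a log2 fold change of 1.44 ± 0.30 (SE, edgeR adjusted p = 0.00692). At full depth it had a UMI in 55.6% and 34.4% of Moxd1 nuclei and in 10.46% and 5.41% of Foxp2 nuclei. Thinned, these shares were 22.0% and 13.2% against 3.47% and 1.92%. Nuclei outside all gates had 22.5 and 77.3 CPM of Htr2a, the latter above the Moxd1 level of the same library, and held 17.1% and 49.5% of the GABAergic Htr2a UMIs. Htr1f was lower inside, at 222 and 240 CPM against 556 and 741 CPM, with a log2 fold change of -1.53 ± 0.25 (SE, edgeR adjusted p = 0.0013). Without the inside sum of library 3 both calls were lost (edgeR adjusted p = 0.124 for Htr2a and 0.119 for Htr1f). The outside arm holds most of the Foxp2 nuclei. Htr1f outside all gates was at 232 and 338 CPM, a range that overlaps the Moxd1 levels. Htr2c was at 473 and 554 CPM inside and 337 and 355 CPM outside, and was not called (edgeR adjusted p = 0.213). It was called higher with the block (0.54, edgeR adjusted p = 0.0028) and with fewer doublets (0.93, edgeR adjusted p = 0.0111). Htr4 was at 105 and 95.3 CPM inside and 67.5 and 82.9 CPM outside, and was not called (edgeR adjusted p = 0.428). Of the alternatives, only nuclei in 1 gate gave a higher call of Htr4 (edgeR adjusted p = 0.0123).

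In the Sst gate none of the 5 tested members was called by edgeR, against 1.32% of 10265 genes, and none by DESeq2. At an unadjusted p under 0.05, 1047 genes passed. Htr7 was at 130 and 82.5 CPM inside and 48.8 and 54.3 CPM outside, its highest levels among the gates, with a log2 fold change of 0.95 ± 0.23 (SE, edgeR adjusted p = 0.0668). The Htr7 range of the Cnr1 gate, 94.7 and 77.9 CPM, overlapped that of the Sst gate. Htr1f was at 103 and 283 CPM inside and 534 and 723 CPM outside, with -1.63 ± 0.38 (SE, edgeR adjusted p = 0.0638). Neither gene's ranges overlapped between inside and outside. Of the Sst nuclei, 2.63% and 22.7% were also in the Foxp2 gate. The outside arm held most Foxp2 nuclei, and their part in the Htr1f difference was not tested. With the library block both were called, Htr7 at 0.93 (edgeR adjusted p = 0.0121) and Htr1f at -1.74 (edgeR adjusted p = 1.98e-05). Both were also called without the filter on low counts, with stricter gates and with nuclei in 1 gate only. They were called too without the inside sum of library 3, a fit that leaves the library 2 sum alone inside. With fewer doublets only Htr1f was called. Htr2c was at 385 and 701 CPM inside and 364 and 330 CPM outside, and was not called (edgeR adjusted p = 0.423). It was called higher with nuclei in 1 gate only. It was also called without the inside sum of library 2, which leaves the higher level of library 3 alone inside.

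In the Vip gate 3 of the 5 tested members were called, against 4.02% of 9954 genes, from 15 and 26 nuclei. Htr4 was at 158 and 196 CPM inside and 72.3 and 81.3 CPM outside, a log2 fold change of 1.17 ± 0.27 (SE, edgeR adjusted p = 0.00248). Htr4 was higher than in any other GABAergic gate. At full depth Htr4 had a UMI in 60.0% and 57.7% of Vip nuclei, and thinned in 35.7% and 43.5%. A single nucleus gave 35.9% of the 39 Htr4 UMIs in library 3, where the level without it was 132 CPM. The call was lost without the inside sum of library 3 (0.84, edgeR adjusted p = 0.336), without the outside sum of library 2 (1.11, edgeR adjusted p = 0.104) and with nuclei in 1 gate only (0.66, edgeR adjusted p = 0.383). Htr1f was at 36.0 and 261 CPM inside from 5 and 52 UMIs and at 502 and 664 CPM outside, a log2 fold change of -1.90 ± 0.34 (SE, edgeR adjusted p = 2.91e-05). Of the Vip nuclei, 0% and 19.2% were also in the Foxp2 gate. The outside arm held most Foxp2 nuclei, and their part in the Htr1f difference was not tested. Htr2a had 0 and 2 UMIs inside, 0 and 10.0 CPM against 35.8 and 36.1 CPM outside, with an edgeR adjusted p of 0.0387. Neither call was made by DESeq2 (adjusted p = 0.333 for Htr1f and 0.273 for Htr2a) or without the inside sum of library 2 (edgeR adjusted p = 0.142 and 0.384). The Htr2a call was also lost with fewer doublets (edgeR adjusted p = 0.096). Htr2c was at 734 and 497 CPM inside and 352 and 388 CPM outside, and was not called (edgeR adjusted p = 0.195). Of the alternatives run, the block alone called it higher (0.66, edgeR adjusted p = 0.0167).

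In the Cnr1 gate, of 16 and 21 nuclei, 1 of the 5 tested members was called, against 4.98% of 9994 genes. Htr1f was at 31.6 and 70.8 CPM inside, from 10 and 20 UMIs, and 528 and 679 CPM outside, with a log2 fold change of -3.51 ± 0.40 (SE, edgeR adjusted p = 2.90e-05). Within the gate 1 nucleus held 90.0% of the 10 UMIs in library 2. Of the Cnr1 nuclei, 12.5% and 9.52% were also in the Foxp2 gate. Most Foxp2 nuclei lay in the outside arm, and their part in the Htr1f difference was not tested. Nuclei outside all gates had 232 and 338 CPM of Htr1f, below that arm's levels and above those of the Cnr1 gate. Htr2c was at 404 and 1388 CPM inside and 363 and 342 CPM outside, a log2 fold change of 1.46 ± 0.43 (SE, edgeR adjusted p = 0.0589). Htr2c was not called with the block or by DESeq2. It was called higher with fewer doublets, without the filter on low counts and with nuclei in 1 gate only. Without the inside sum of library 2 the log2 fold change of Htr2c was 2.07, from the library 3 level alone inside. The libraries differed more than 3-fold inside, and the level of library 3 without its top nucleus was 1253 CPM.

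Ordered by mean level, Htr1f fell from the Foxp2 gate (1005 ± 66.0 CPM, SD, n = 2) to glutamatergic nuclei (332 ± 38.9), nuclei outside all gates (285 ± 75.4) and the Moxd1 gate (231 ± 12.7). Only the first step had ranges that did not overlap. Htr2c ran from the Cnr1 gate (896 ± 695 CPM) to the Foxp2 gate (123 ± 56.9 CPM), and only the last step, from glutamatergic nuclei (446 ± 4.96 CPM), was free of overlap. Htr4 was set apart at the top in the Vip gate (177 ± 26.7 CPM), and Htr7 at the bottom in glutamatergic nuclei (14.4 ± 1.88 CPM).

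Counted per nucleus at full depth, a median of 2 of the 8 members had a UMI in both classes and both libraries. The full-depth median was 0 in oligodendrocyte-like barcodes and 3 in the Moxd1 gate, in both libraries. These groups differ in depth. Thinned to equal depth, the median was 1 in both classes and 2 in the Moxd1 gate, in both libraries. In oligodendrocyte-like barcodes it stayed at 0. Expected numbers of shared nuclei were products of shares within groups of about 20 nuclei of similar depth, added up. Htr1f and Htr2c shared fewer GABAergic nuclei than this gives, 82 against 109 in library 2 and 161 against 196 in library 3. The Foxp2 gate, with high Htr1f and low Htr2c, lies in this class, and its part in the shortage was not tested. Thinned, Htr2c had a UMI in 21.7% and 23.6% of GABAergic nuclei with Htr1f and in 55.6% and 55.9% of those without. In glutamatergic nuclei the same shares were 60.7% and 55.8% with Htr1f and 64.1% and 50.9% without, lower with Htr1f in library 2 and higher in library 3. These are counts over nuclei that share a library and have no test.

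Within the glutamatergic class, gates of 2 or more UMIs were set on marker genes that the study used for its glutamatergic clusters. A further gate took nuclei with Slc17a6 and no Slc17a7. Each was compared with the remaining glutamatergic nuclei. The gates overlap, so tests in different gates share nuclei. In libraries 2 and 3 the Lypd1 gate held 59.9% and 59.5% of glutamatergic nuclei, Etv1 41.3% and 37.6%, and Otof 41.5% and 28.1%. Of the 48 member tests over 8 gates, 4 were called. Over all genes, 0.0476% to 3.28% were called per gate. In the fit with the library block 17 member tests were called, among 3943 calls over all genes against 638 without it. Per gate, the block called 181 to 694 genes of the 9636 to 11110 tested.

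In the Rspo2 gate (96 and 28 nuclei) 1 of 6 tested members was called, against 0.617% of 10862 genes. Htr1f was at 554 and 594 CPM inside and 278 and 231 CPM outside, a log2 fold change of 1.21 ± 0.20 (SE, edgeR adjusted p = 0.029). It had a UMI in 92.7% and 96.4% of these nuclei at full depth, and thinned to 3700 UMIs in 77.1% and 75.0%. Their median depth was 24418 and 19108 UMIs, above that of the class. Htr2c was at 310 and 280 CPM inside and 498 and 493 CPM outside and was not called (edgeR adjusted p = 0.151). Htr2c was called with the block (-0.70, edgeR adjusted p = 3.67e-05) and without the filter on low counts (-0.77, edgeR adjusted p = 0.0182). Htr4, at 81.0 and 102 CPM inside and 41.9 and 54.9 CPM outside, was not called either (edgeR adjusted p = 0.155). It was called with the block (0.96, edgeR adjusted p = 0.000225), without the filter, and without the inside sum of library 2 (1.23, edgeR adjusted p = 0.00182) or the outside sum of library 3 (1.21, edgeR adjusted p = 0.0112). Nuclei with Slc17a6 and no Slc17a7 (28 and 21) were at the other end for Htr1f, with 155 and 131 CPM inside and 368 and 320 CPM outside. The log2 fold change was -1.35 ± 0.25 (SE, edgeR adjusted p = 0.00747), the only call among 6 tested members, against 3.28% of 9636 genes.

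In the Rorb gate (52 and 30 nuclei) Htr2a was at 52.6 and 40.3 CPM inside and 11.9 and 10.0 CPM outside, a log2 fold change of 2.12 ± 0.28 (SE, edgeR adjusted p = 0.00488). It was the only call of 6, against 0.902% of 9976 genes, and was lost without the outside sum of library 2. Over all alternatives the Htr2a log2 fold change stayed between 1.90 and 2.35. Htr7, at 33.8 and 23.3 CPM inside and 10.3 and 14.4 CPM outside, was not called (edgeR adjusted p = 0.138). Htr7 passed with the block (1.38, edgeR adjusted p = 0.0041), without the filter and without the outside sum of library 3 (1.61, edgeR adjusted p = 0.0196). Rorb nuclei thus reached Htr2a levels above the GABAergic 34.4 and 35.3 CPM, a comparison that was not tested. In the Otof gate (201 and 59 nuclei) Htr4 was at 29.0 and 27.2 CPM inside and 70.8 and 86.2 CPM outside, a log2 fold change of -1.51 ± 0.22 (SE, edgeR adjusted p = 0.0199). It was the only call of 6, against 0.929% of 11088 genes. Htr2a, at 7.47 and 0.85 CPM inside and 23.4 and 22.5 CPM outside, missed the threshold (edgeR adjusted p = 0.0544). It was called with the block (-2.11, edgeR adjusted p = 0.0166), by DESeq2 (-2.30, adjusted p = 0.0246) and without any 1 of the 4 sums. Htr7 was at 5.17 and 8.50 CPM inside and 18.7 and 20.04 CPM outside, and was not called (edgeR adjusted p = 0.0759). It was called with the block (-1.65, edgeR adjusted p = 0.0157), without the filter, with fewer doublets and without the inside sum of library 3 (-2.01, edgeR adjusted p = 0.00563) or the outside sum of library 2 (-1.82, edgeR adjusted p = 0.00651) or library 3 (-1.56, edgeR adjusted p = 0.00889).

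No member was called by edgeR in the Etv1, Lypd1, Sema5a and Grik1 gates, where 0.261%, 0.204%, 0.0476% and 0.0581% of genes were called and 653, 651, 516 and 598 genes had an unadjusted p under 0.05. DESeq2 called 1 member in the Etv1 gate and none in the other 3. With the library block, Htr1f and Htr4 were called higher in the Etv1 gate (0.80 and 0.90) and lower in the Sema5a gate (-0.74 and -0.76) and the Grik1 gate (-0.88 and -1.18). Htr2a and Htr4 were called lower with the block in the Lypd1 gate (-1.10 and -1.09). The edgeR adjusted p of these 8 ranged from 6.35e-10 (Htr4, Lypd1) to 0.0473 (Htr4, Sema5a). Each of the 8 was also called in at least 1 other alternative. All 4 calls in the glutamatergic gates were lost with library 1 added, where 1 gene was called over the 8 gates.

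**Figure D4:**
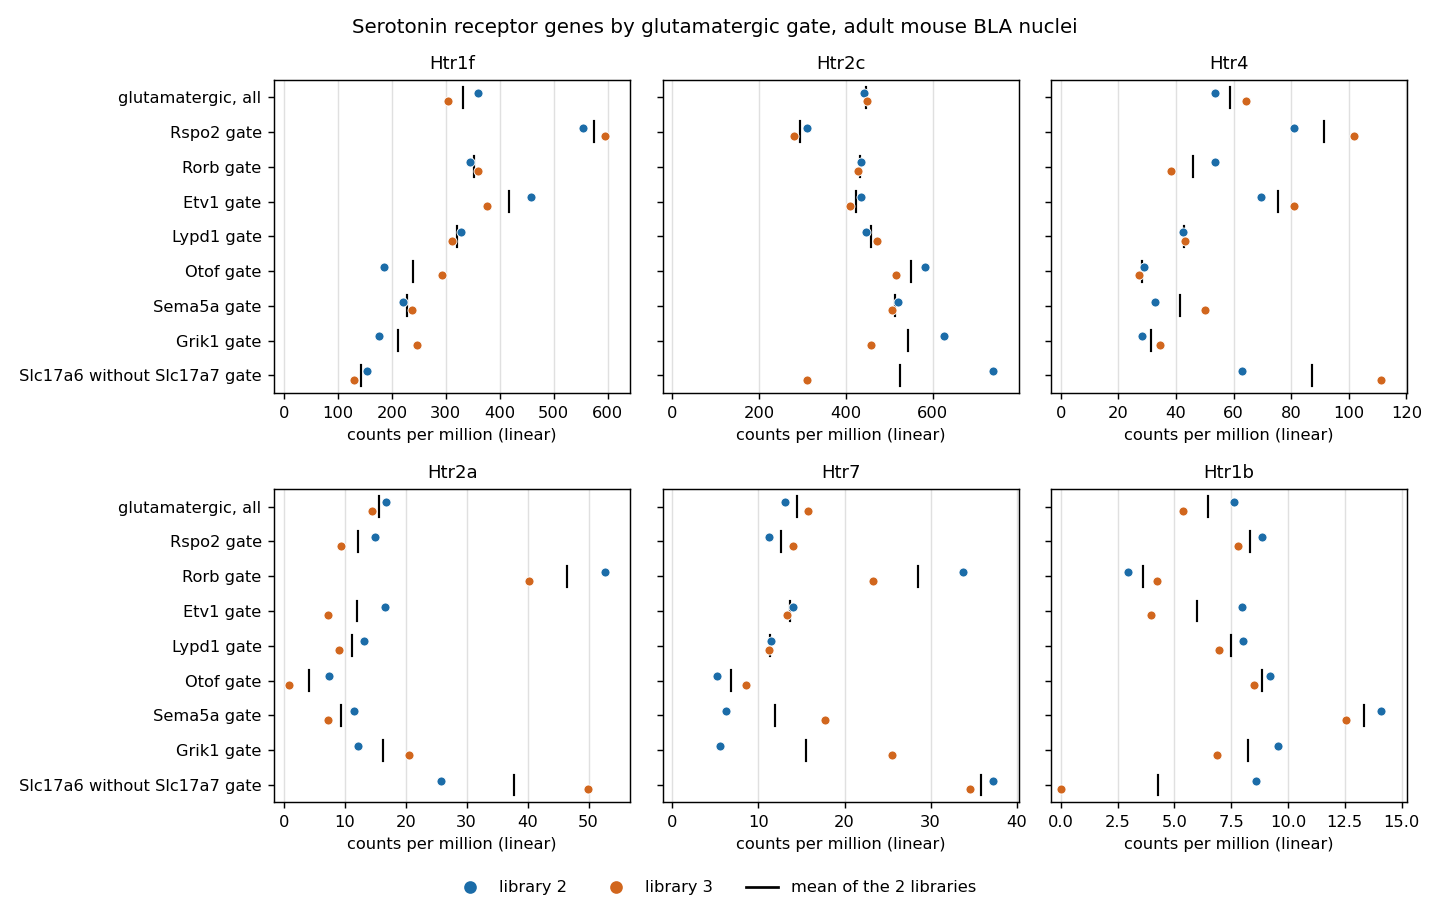
Levels of 6 receptor genes (CPM, linear axes that differ between genes) in all glutamatergic nuclei and in 8 gates, 1 point per library and a bar at the mean of libraries 2 and 3. Htr1f is highest in the Rspo2 gate (554 and 594 CPM) and Htr2a is at 52.6 and 40.3 CPM in the Rorb gate.

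The rest of the serotonin system was taken from a list that included the 6 receptor genes that are not members. Of these, 2 passed the filter between classes. Htr1d, the gene of an inhibitory receptor, was at 0.238 and 0.315 CPM in glutamatergic and 4.76 and 5.37 CPM in GABAergic nuclei and was called (edgeR adjusted p = 0.000289). Htr2b was not (log2 fold change 0.50, edgeR adjusted p = 0.461), and Htr3b, Htr5a, Htr5b and Htr6 did not pass. Of 9 genes of synthesis, storage, uptake and breakdown 6 were tested, and 1 was higher and 1 lower in glutamatergic nuclei. The monoamine transporter gene Slc29a4 was higher (2.18 ± 0.41, SE) and Slc22a3, also of a low-affinity transporter, was lower (-2.14 ± 0.49).

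Of 23 G protein and effector genes 20 were tested, and 4 were higher and 4 lower in glutamatergic nuclei, with a median log2 fold change of -0.14. Gna14, of a Gq-family subunit, fell by 5.39, the phospholipase gene Plcb4 by 2.77 and Gnal, of an olfactory and striatal Gs-like subunit, by 2.15 on the log2 scale. The channel subunit gene Kcnj9 and the adenylyl cyclase gene Adcy1 were higher, by 1.03 and 0.96. Among 7 receptor partners, 2 were lower and none higher: Grk5 (-0.99 ± 0.17) and Arrb1 (-0.79 ± 0.16), both known for receptor desensitisation. Between the Foxp2 gate and other GABAergic nuclei, 4 effector genes were higher and 4 lower of 20. Kcnj6, of a potassium channel that Gi-coupled receptors open, was higher by 1.12 ± 0.18 (SE), and Gna14 was lower (-2.62 ± 0.53). Kcnj6 was named after its values were seen. The 16.4% of all genes called between classes and the 12.1% called in the Foxp2 gate are the background for these counts.

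Genes with the most similar pattern to a member were ranked by Pearson's r of log2(CPM + 1) over 12 points, the glutamatergic class and the 5 GABAergic gates in 2 libraries, among 10233 genes. The points share libraries and, between gates, some nuclei. The most alike were Ipcef1 for Htr1f (r = 0.964), Zfp385a for Htr2a (0.964), Rims3 for Htr7 (0.937), Arsj for Htr1b (0.925), Hcrtr2 for Htr4 (0.896) and Ctnnd2 for Htr2c (0.883).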

How the data were processed

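Nuclei of microdissected BLA were sequenced with 10x 3' v3.1 chemistry. The authors aligned reads to mm10 with Cell Ranger 7.0.1, as the submitters' notes give it, and deposited, for each library, a sparse matrix whose values are unnormalised UMI counts. Whether intronic reads were counted is not given in the sources used here. Gene positions are from GENCODE vM21 on GRCm38.

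UMI counts were summed per library and class or gate (at least 10 barcodes per sum) and tested with edgeR 4.0.16 in R 4.3.3 (TMM, filterByExpr, quasi-likelihood F test, Benjamini-Hochberg adjustment over all genes, threshold 0.05). Fold changes are log2 of fitted values. The libraries were the replicates, and nothing says that they came from separate animals, so p-values may measure technical spread. Sums of 1 library share brains. Deviations of both arms from their means correlated across genes in all 14 comparisons (r from 0.121 to 0.325), and the library was therefore also fitted as a block. Sums held 139045 to 8398155 UMIs. Intervals of shares are exact Clopper-Pearson 95% intervals and, like limits from a count of 0 (3 counts), cover counting error only. No doublet caller was run. Barcodes with genes of both transmitters were outside both classes, and an alternative dropped barcodes above the 95th percentile of UMIs and those with 2 or more UMIs of non-neuronal markers.

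Libraries 2 and 3 shared 7 barcode sequences, none in a class in both. The test was tried on simulated counts with known changes first. Alternatives were DESeq2 1.42.0, no filter on low counts, the block, library 1 added, the study's filters on genes, mitochondrial and hemoglobin reads (not those on ribosomal reads and doublets), fewer doublets, stricter gates, nuclei of 1 gate only, equal weight per nucleus and leaving out libraries or single sums, the last added after the data were seen. The members, gates and lists were chosen with earlier results of these data known. The text names all members, the 10 listed pathway genes with the largest called differences between classes and the first of the 3 genes most like each member. Numerical work used Python 3.11.15, numpy 2.4.6, scipy 1.17.1 and pandas 2.3.3.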

Additional observations from a re-analysis of the deposited data

Results flagged for a closer look

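Library 1 entered the fits only where it was added as an alternative, and 5 members exceeded there the 3 counts that a count of 0 allows. In its 42 glutamatergic barcodes Htr1f was at 190 CPM, Htr2c at 225 CPM, Htr4 at 23.7 CPM, Htr2a at 20.7 CPM and Htr7 at 11.8 CPM, from 64, 76, 8, 7 and 4 UMIs. Sst had a UMI in 47.6% of these barcodes, against 1.24% and 0.952% of the glutamatergic nuclei of libraries 2 and 3. In the same barcodes a single nucleus held 71.4% of the Htr2a UMIs. The groups of 2 libraries were too small for a search for samples that stand apart.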

How the results depend on the processing

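All 17 called differences of members kept their sign in 228 of 228 alternatives and their call in 151 of 177 tested ones. DESeq2, the block and the fit without the filter use the same sums as the main fit. They are therefore not independent checks of the sign. The study's filters kept every GABAergic nucleus, all 484 glutamatergic nuclei of library 2 and 208 of 210 of library 3. In the GABAergic gates that alternative repeats the main fit, so its part of these totals could not differ there. The calls of Htr1f, Htr2a and Htr2c in the Foxp2 gate and of Htr1f in the Cnr1 gate held in every alternative with a test. Of the 26 lost calls, 7 went with library 1 added and 3 with DESeq2. Members called between classes numbered 3, and 5 without the filter on low counts and 0 with library 1. All genes called between classes numbered 2112, and 71 with library 1. Over the GABAergic gates 3059 genes were called, and 2021 with DESeq2. Over the glutamatergic gates 4 members were called, 8 with fewer doublets, 18 without the filter, 0 with library 1 and 7 to 11 without 1 sum. There 638 genes were called, 2331 without the filter, 1 with library 1, 911 to 2035 without 1 sum and, with stricter gates, 5 against 62 over the same 4 gates. The cause of these shifts was not tested.

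With the replicate block, which pairs the sums of a library, 5 members and 3216 genes were called between classes. Added over gates, it made 5246 gene calls in the GABAergic gates. In the glutamatergic gates it made 17 member calls and 3943 gene calls. No call was lost under the block. Most member calls that it added were also made in other alternatives. Stricter gates could not be fitted for the Vip, Cnr1, Rspo2, Rorb and Otof gates and that of Slc17a6 without Slc17a7, which had under 10 barcodes in a sum, nor library 1 for the GABAergic gates, with 7 GABAergic barcodes. Leaving out a whole library gave values with no test. The 3 UMIs of Htr1a and 1 UMI of Htr3a in glutamatergic nuclei set the limit of depth.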
